A study of Mus musculus with 15 samples.

Results

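The genes examined here make, degrade and read the second messenger cyclic AMP (cAMP): the adenylyl cyclases (Adcy), the phosphodiesterases (Pde), the catalytic and regulatory subunits of protein kinase A (Prkac and Prkar) and the cAMP-activated exchange factors Epac1 (Rapgef3) and Epac2 (Rapgef4). They were chosen by gene symbol. The rule took all symbols that begin with Adcy, Pde, Prkac or Prkar and their number or letter, plus the 2 Epac genes. It used no measured levels, but the genes were chosen with earlier results of these data known. This rule found 44 of the 21878 genes in the expression tables. Of these, Pde4dip, a Golgi and centrosome scaffold called myomegalin, and Pde12, a mitochondrial enzyme that trims the tails of RNA, share the name without being cyclic-nucleotide phosphodiesterases.

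Expression was measured by RNA-seq of prefrontal forebrain cortex in 15 mouse libraries, 3 or 4 per group. The mice were conditional presenilin double knockouts (DKO), presenilins being the catalytic subunits of gamma-secretase, or wildtype C57BL6/J mice (WT). They were 8 months old when they started to drink water or nicotine, a ligand of nicotinic acetylcholine receptors, at 100 µg/ml, and tissue was taken after 3 months and behaviour tests. The groups were DKO nicotine (3 libraries), DKO water (4), WT nicotine (4) and WT water (4). The labels name no Cre line and no sex, and they do not say that each library is 1 mouse, so a p-value here sets a difference against the spread between libraries, which may in part be technical. Values are FPKM, which are read fragments scaled by gene length and library depth, and a gene was tested where it reached at least 1 FPKM in at least 3 libraries. A change is called where the Benjamini-Hochberg adjusted p of limma over all 12728 tested genes was under 0.05, and fold changes are on the log2(FPKM + 1) scale, which understates changes of low genes.

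Adenylyl cyclases are membrane enzymes that are switched on by stimulatory G proteins and, for some isoforms, by calcium and calmodulin, and held down by inhibitory G proteins. Cyclic AMP acts mainly by releasing the catalytic subunits of protein kinase A from their regulatory subunits and by opening the Epac proteins, which activate the small GTPase Rap. Phosphodiesterases end the signal, and in cortex the pathway is known for its role in synaptic plasticity and in the working-memory circuits of the prefrontal cortex.

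The promoters of 3 members are shown because the Epac pair differed between genotypes in opposite directions and because Prkar1a, the type I regulatory subunit, was the 1 member whose promoter window held a full cAMP response element. The windows run from 250 bases before to 50 bases after the annotated start, 5′ to 3′ on the gene's strand, from RefSeq (GRCm38.p6). Rapgef4 is at chr2:71980965-71981264 on the plus strand, Rapgef3 at chr15:97767617-97767916 on the minus strand and Prkar1a at chr11:109650699-109650998 on the plus strand. The Rapgef3 and Prkar1a windows lie inside their annotated genes (chr15:97744770-97768419 and chr11:109649023-109669663), so these starts are internal. Prkar1a had 6 windows, and 1 that held the full element is shown. Capitals mark GGGCGG (the GC box), TGACG (the core of the cAMP response element) and TGACGTCA (the full element), on either strand, with overlapping matches run together.
Rapgef4: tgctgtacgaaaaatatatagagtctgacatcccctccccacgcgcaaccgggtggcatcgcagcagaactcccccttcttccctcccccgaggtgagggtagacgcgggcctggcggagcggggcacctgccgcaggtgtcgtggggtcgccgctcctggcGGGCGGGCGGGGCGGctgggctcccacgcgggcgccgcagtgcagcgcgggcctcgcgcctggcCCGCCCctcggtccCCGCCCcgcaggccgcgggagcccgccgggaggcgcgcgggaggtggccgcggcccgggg
Rapgef3: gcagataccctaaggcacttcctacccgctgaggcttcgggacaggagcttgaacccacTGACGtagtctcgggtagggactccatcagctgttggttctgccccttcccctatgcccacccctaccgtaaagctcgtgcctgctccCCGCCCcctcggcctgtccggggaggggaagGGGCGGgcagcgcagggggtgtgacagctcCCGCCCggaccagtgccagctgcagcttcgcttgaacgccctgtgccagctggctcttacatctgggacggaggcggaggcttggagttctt
Prkar1a: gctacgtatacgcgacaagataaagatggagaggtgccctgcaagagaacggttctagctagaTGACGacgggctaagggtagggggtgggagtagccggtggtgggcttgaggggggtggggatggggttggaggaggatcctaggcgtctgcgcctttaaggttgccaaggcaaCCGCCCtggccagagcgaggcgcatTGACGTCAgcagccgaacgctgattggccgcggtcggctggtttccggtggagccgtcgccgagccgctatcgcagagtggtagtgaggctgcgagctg
Windows were found for 35 of the 44 members, 73 windows in all because some genes have several starts. The full element TGACGTCA stood in 2 of the 73 windows, both of Prkar1a, against 1.79% of all 32851 windows in the table. The core TGACG, which also lies within the full element, stood in 23.3% of the members' windows and 20.8% of all windows. GGGCGG stood in 42.5% of the members' windows and 35.7% of all windows. The Rapgef4 window held 5 matches to GGGCGG and none to TGACG, and the Rapgef3 window held 3 matches to GGGCGG and 1 to TGACG. A match describes the letters in the window and says nothing about a factor bound there.

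The libraries held 16334914 to 19469257 reads in genes. Psen2, a targeted gene and a catalytic subunit of gamma-secretase, averaged 1.57 ± 0.199 FPKM in the DKO nicotine libraries (SD, n = 3), 1.51 ± 0.179 in DKO water, 6.48 ± 0.571 in WT nicotine and 6.43 ± 0.77 in WT water (SD, n = 4 each). The summed FPKM of 4 Y-linked genes was 35.9, 0.233 and 36.6 in DKO nicotine replicates 1 to 3, 24.3 to 33 in DKO water, 0.0909 to 0.144 in WT nicotine and 28.9 to 33 in WT water. DKO nicotine replicate 2 therefore stood apart from its group, and in WT mice nicotine and Y-linked expression cannot be told apart. No member lies on the X or Y chromosome. Excitatory neuron markers (8 genes) summed to 1893 to 2097 FPKM in DKO nicotine, 1922 to 2072 in DKO water, 2494 to 2671 in WT nicotine and 2410.1 to 2483 in WT water, and none of the 8 was at 0. Fewer cells of a type and less RNA per cell cannot be told apart in bulk tissue.

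All 9 transmembrane cyclases were expressed, and the order of their levels was Adcy1, Adcy2, Adcy5, Adcy9, Adcy3, Adcy6, Adcy8, Adcy7 and Adcy4. Mean FPKM over the 15 libraries was 85.4 for Adcy1, which is stimulated by calcium and calmodulin, 54.4 for Adcy2, which is stimulated by G protein beta-gamma subunits, and 38.5 for Adcy5, the main cyclase of the striatum. Together these 3 made up 78.1 to 79.2% of summed cyclase FPKM in DKO nicotine, 78 to 79.7% in DKO water, 79.3 to 80.5% in WT nicotine and 79.2 to 80.9% in WT water. Next came Adcy9, the cyclase least responsive to forskolin, at 17.9, and Adcy3, the cyclase of neuronal primary cilia, at 13.6 FPKM. Adcy6, a relative of Adcy5, averaged 7.64 FPKM, Adcy8, a second calmodulin-stimulated cyclase, 4.26, Adcy7 1.63 and Adcy4 1.24. Adcy7 lay above Adcy4 in the DKO groups, where Adcy4 averaged 1.24 ± 0.17 FPKM over the 3 nicotine libraries and 1.28 ± 0.128 over the 4 water libraries (mean ± SD), and by mean below it in the WT groups, where Adcy4 averaged 1.34 ± 0.281 in WT nicotine and 1.08 ± 0.0926 in WT water (SD, n = 4 each). The soluble cyclase Adcy10, which responds to bicarbonate, did not exceed 0.0531 FPKM in any library.

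Among the phosphodiesterases, Pde2a, which is stimulated by cGMP, was highest at a mean of 99.1 FPKM, followed by the calcium- and calmodulin-stimulated Pde1b at 66 and Pde1a at 47.3. These 3 made up 64.1 to 64.8% of summed phosphodiesterase FPKM in DKO nicotine, 63.3 to 65.6% in DKO water, 60.5 to 62.4% in WT nicotine and 61.7 to 63.2% in WT water. That sum leaves out Pde12 and Pde4dip but counts Pde6d. The cAMP-specific Pde4a and Pde4b, targets of rolipram, averaged 23.2 and 19.5 FPKM. Pde6d, a chaperone of prenylated proteins, averaged 23, the high-affinity cAMP-specific Pde8b 13 and Pde8a 8.48, and the dual-specificity Pde10a 10.7 FPKM. Pde9a and Pde5a, which degrade cGMP, averaged 6.33 and 2.1 FPKM. Pde7b, Pde7a, Pde4d and the cGMP-inhibited Pde3b averaged 5.03, 4.07, 3.03 and 1.58 FPKM, and Pde12 and Pde4dip 4.2 and 19.6.

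The 3 most abundant members encoded protein kinase A subunits. The type I regulatory subunits Prkar1b and Prkar1a averaged 343 and 183 FPKM, and the type II subunits Prkar2b and Prkar2a 19.96 and 13.7. The catalytic subunits Prkacb and Prkaca averaged 122 and 80.1 FPKM. Summed regulatory over summed catalytic FPKM was 2.64 to 2.85 in DKO nicotine, 2.64 to 2.75 in DKO water, 2.74 to 2.89 in WT nicotine and 2.74 to 2.83 in WT water, and these ranges overlapped.

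**Figure D1:**
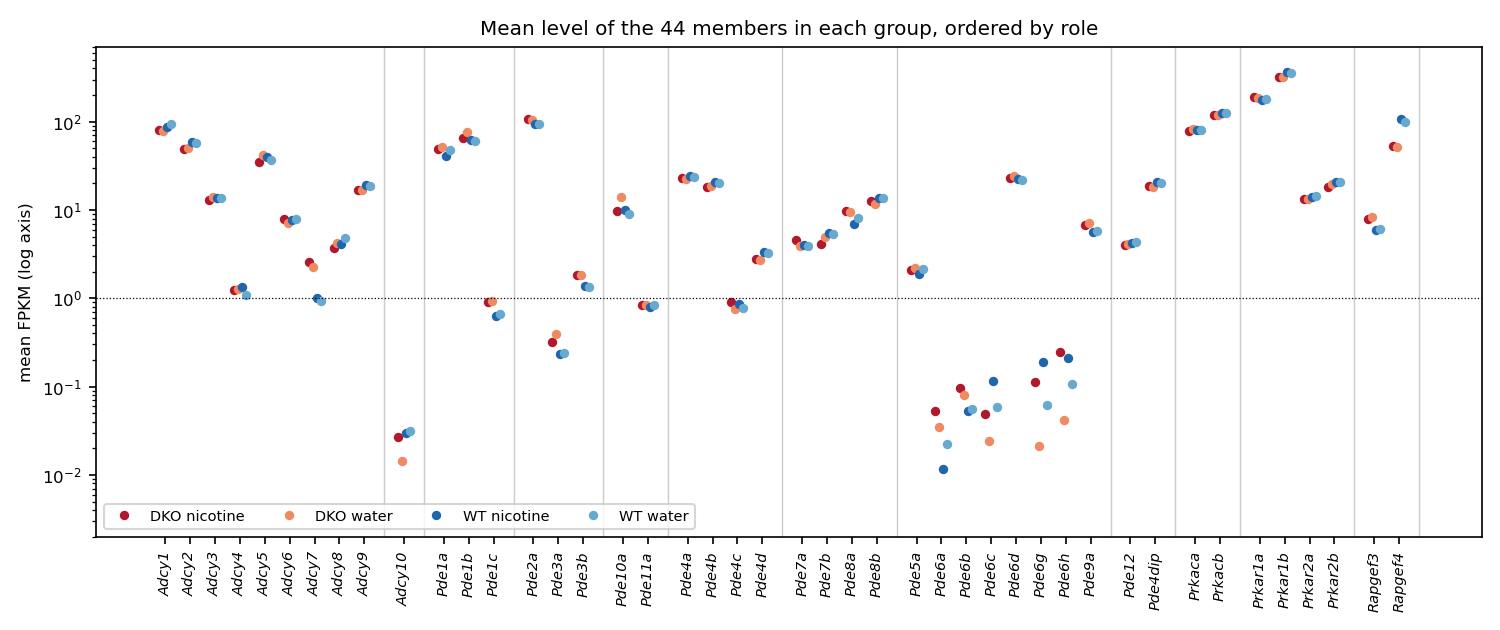
Mean FPKM (log axis) of the 44 members in the 4 groups, ordered by role, with a dotted line at 1 FPKM. Prkar1b was highest and Adcy10 and most Pde6 genes lay far below 1 FPKM.

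Without nicotine, the comparison of DKO water with WT water asks what differed between the genotypes. Of the 35 tested members, 8 rose and 9 fell in DKO water against WT water, or 48.6%, where 38.0% of all 12728 tested genes were called. By direction, 25.5% of all tested genes rose and 12.4% fell. Among the members that rose, Pde1c passed the filter through DKO libraries alone and Adcy7 mainly through them. The groups did not overlap in 16 members, against 36.5% of all tested genes. The members' median log2 fold change was 0.02 and that of all tested genes 0.05. With libraries rescaled by the median of ratios, 5 members rose and 14 fell of 34 tested, where 38.0% of all genes were called, 18.2% higher and 19.8% lower, and the share of higher calls among all calls was 47.8% in place of 67.2%. Adcy6, Adcy8, Adcy9, Prkar2a and Prkar2b were the members called lower after rescaling and not before it.

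Under nicotine the genotypes were compared in other libraries. There 7 members rose and 9 fell, or 45.7% of 35, where 35.7% of all tested genes were called, 24.6% higher and 11.0% lower. The groups did not overlap in 15 members, against 37.7% of all tested genes. The members' median log2 fold change was -0.06 and that of all tested genes 0.06. With rescaling, 5 members rose and 16 fell, where 34.6% of all genes were called, 15.6% higher and 19.0% lower, and the share of higher calls among all calls was 45.2% in place of 69.0%. Adcy1, Adcy3, Pde4a, Pde4dip, Prkaca, Prkacb and Prkar2a were those called lower after rescaling and not before it. Without DKO nicotine replicate 2, 9 members rose and 9 fell, where 34.7% of all tested genes were called. In DKO nicotine replicates 1 and 3 Y-linked genes were expressed and in WT nicotine they were not, and the part of this in the comparison was not tested.

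In all, 10 members were called in the same direction under both drinks, or 28.6% of the 35, where 26.5% of all tested genes were. They made up 58.8% of the members' 17 calls with water and 62.5% of their 16 calls with nicotine, where 69.8% and 74.4% of the calls over all tested genes were shared in this way. Adcy7, Pde2a, Pde3b and Rapgef3 were the 4 that rose, and Adcy2, Pde4b, Pde4d, Pde8b, Prkar1b and Rapgef4 the 6 that fell. No member was called in opposite directions, and 12 of the 35 were called in neither comparison. Both tests share the filter at 1 FPKM, which Adcy7 passed in 9 libraries, 7 of them DKO, and Pde1c in 3 libraries, all DKO, so those 2 genes entered the test wholly or mainly through the genotype in which they were higher.

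The exchange factor Epac2, encoded by Rapgef4 (chr2:71981215-72257474, GRCm38.p6), fell the most of all members on the log2(FPKM + 1) scale, while by ratio of means Adcy7, described with the cyclases, differed more. Rapgef4 was at 52.8, 54.4 and 50.02 FPKM in DKO nicotine and 49.1, 52.2, 53.8 and 49 in DKO water. It was at 112, 116, 101 and 103 FPKM in WT nicotine and 104, 97.8, 90.1 and 101 in WT water. All 7 DKO libraries lay far below all 8 WT libraries, whichever the drink. Rapgef4 fell in DKO water against WT water with a log2 fold change of -0.93 (SE 0.05, adjusted p = 6.1e-10) and a ratio of means of 0.52. In DKO nicotine against WT nicotine it fell with a log2 fold change of -1.03 (SE 0.06, adjusted p = 5.76e-10) and a ratio of means of 0.485. On the log2(FPKM + 1) scale these were the 22nd and the 11th largest falls among 12728 tested genes. The counts behind them were 7152 to 18987 recovered reads per library.

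Its relative Epac1, encoded by Rapgef3 (chr15:97744770-97768419), which is broadly expressed outside the nervous system, went the other way from a much lower level. Rapgef3 was at 8.03, 7.72 and 7.84 FPKM in DKO nicotine and 8.15, 8.52, 8.37 and 8.19 in DKO water, against 5.72, 5.87, 6.19 and 5.76 in WT nicotine and 5.91, 6.43, 5.86 and 5.99 in WT water. Again no DKO library overlapped a WT library. It rose with a log2 fold change of 0.40 (SE 0.04, adjusted p = 1.34e-06) with water and 0.36 (SE 0.05, adjusted p = 1.17e-05) with nicotine. The ratio of Rapgef4 to Rapgef3 FPKM within a library was 6.38 to 7.04 in DKO nicotine, 5.98 to 6.42 in DKO water, 16.4 to 19.8 in WT nicotine and 15.2 to 17.6 in WT water. Endothelial markers (8 genes) summed to 82.6 to 100.1 FPKM in DKO nicotine, 85.6 to 104 in DKO water, 65.7 to 79.1 in WT nicotine and 65.1 to 71.2 in WT water, with 4 of 8 called higher with water and 2 of 8 with nicotine. Astrocyte markers (8 genes) summed to 1234 to 1303 FPKM in DKO nicotine, 1216 to 1324 in DKO water, 747 to 850.3 in WT nicotine and 698 to 783 in WT water, with 8 of 8 called higher with water and 7 of 8 with nicotine. Of the excitatory neuron markers, 5 of 8 were called lower in each comparison. None of these markers was at 0, and their part in the Epac differences was not tested. Exons of both genes overlap exons annotated on the opposite strand in GENCODE, as do those of Adcy2, Adcy3, Adcy6, Pde3a, Pde5a, Pde6h, Pde7a, Pde8b, Pde9a and Pde12, 12 members in all. The labels do not say whether the authors' counting used strand, so reads of a gene and of its opposite-strand partner cannot be told apart.

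**Figure D2:**
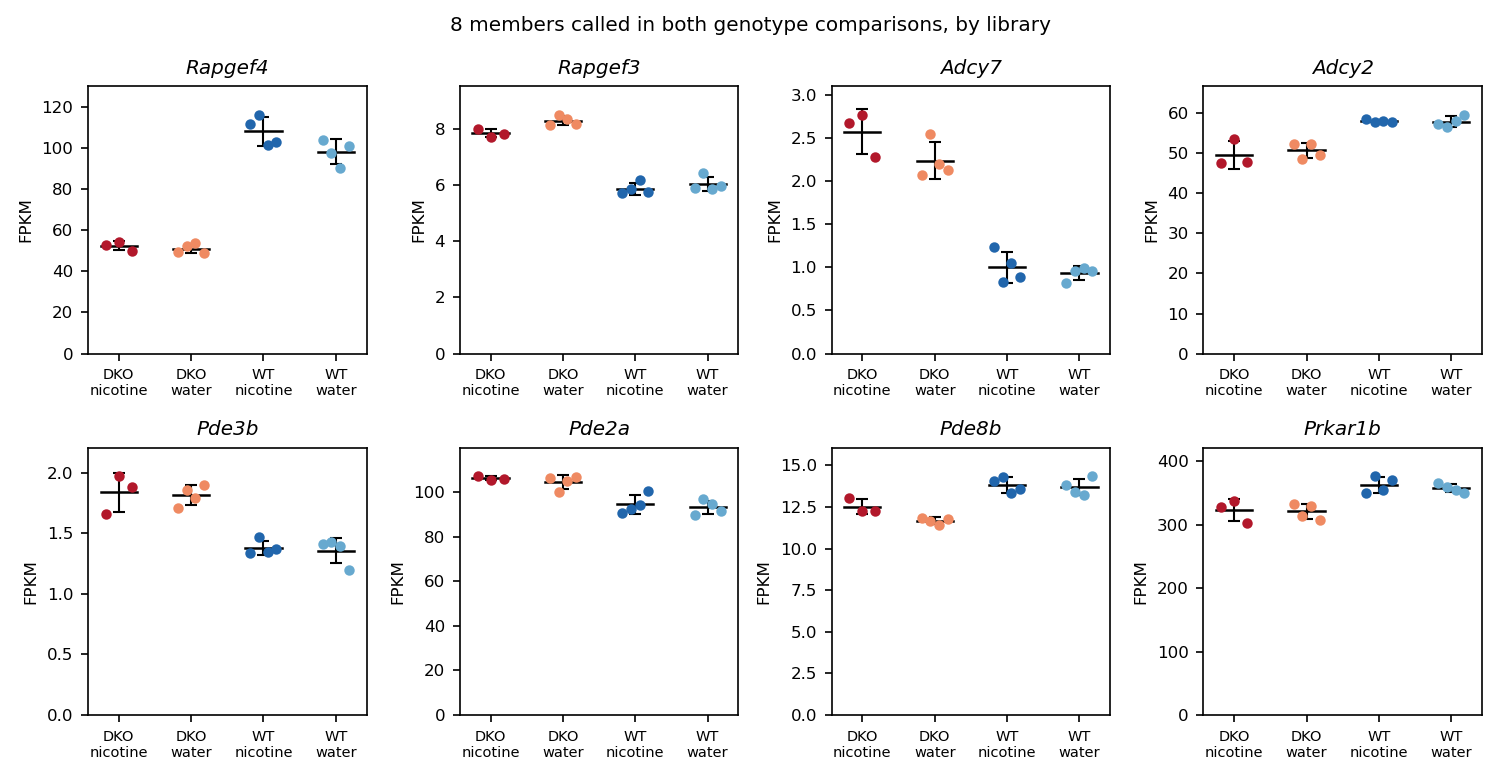
FPKM per library (points) of 8 members called in both genotype comparisons, with the group mean and SD (bars), for DKO nicotine (n = 3), DKO water, WT nicotine and WT water (n = 4 each). For Rapgef4 all DKO libraries lie at 54.4 FPKM or less and all WT libraries at 90.1 or more.

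Among the cyclases, Adcy7 rose and Adcy2 fell in DKO under both drinks, and Adcy1 and Adcy9 were called lower under 1 drink each. Adcy7, a cyclase stimulated by G protein beta-gamma subunits and prominent in immune cells, was at 2.68, 2.77 and 2.28 FPKM in DKO nicotine and 2.07, 2.55, 2.2 and 2.13 in DKO water. It was at 1.23, 0.826, 1.05 and 0.887 FPKM in WT nicotine and 0.819, 0.962, 0.994 and 0.959 in WT water. The DKO libraries all lay above the WT libraries, and Adcy7 passed the filter mainly through them. Its log2 fold change was 0.74 (SE 0.08, adjusted p = 1.05e-06) with water and 0.84 (SE 0.08, adjusted p = 7.5e-07) with nicotine on the log2(FPKM + 1) scale. The ratio of mean FPKM was 2.4 with water and 2.58 with nicotine, and limma voom, which adds no FPKM pseudocount, gave log2 fold changes of 1.26 (adjusted p = 7.02e-08) and 1.37 (adjusted p = 2.8e-08), on 129 to 454 recovered reads per library. The 12 microglia markers summed to 1099 to 1289.8 FPKM in DKO nicotine, 1178 to 1366 in DKO water, 281 to 318 in WT nicotine and 282 to 331 in WT water. Of these markers 12 of 12 rose with water and 10 of 12 with nicotine, none was at 0, and their part in the Adcy7 difference was not tested.

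Adcy2, one of the 3 abundant cyclases, was at 47.5, 53.5 and 47.8 FPKM in DKO nicotine and 52.4, 48.7, 52.4 and 49.7 in DKO water, against 58.5, 57.8, 58.2 and 58 in WT nicotine and 57.4, 56.7, 58.1 and 59.7 in WT water. All DKO libraries were below all WT libraries, by a small margin. It fell with a log2 fold change of -0.19 (SE 0.04, adjusted p = 0.00111) with water and -0.23 (SE 0.04, adjusted p = 0.000509) with nicotine. Adcy1 was at 74.9, 75.3, 84.5 and 81.4 FPKM in DKO water and 95.2, 90.1, 88.8 and 97.3 in WT water, without overlap, and fell with a log2 fold change of -0.23 (SE 0.05, adjusted p = 0.00239). With nicotine Adcy1 was at 78.6, 88.7 and 75.7 FPKM in DKO and 92.9, 86.4, 84 and 87.2 in WT, where the groups overlapped and the log2 fold change was -0.11 (SE 0.06, adjusted p = 0.127). Adcy9 was at 16.8, 18.7 and 15 FPKM in DKO nicotine and 20.4, 18.3, 18.4 and 19.1 in WT nicotine, and was called lower with a log2 fold change of -0.17 (SE 0.06, adjusted p = 0.0428), a call that 11 of 25 alternatives did not keep, among them leaving out any 1 of WT nicotine replicates 1 and 4, DKO nicotine replicates 1 and 3, WT water replicate 1 and DKO water replicate 4 (adjusted p of 0.00574 to 0.264 over all alternatives). With water the log2 fold change of Adcy9 was -0.15 (SE 0.06, adjusted p = 0.057), called lower in 7 of its alternatives. The striatal marker covariate was the log2 of the summed FPKM of 12 striatal genes, given with Pde10a. With this covariate, Adcy1 and Adcy2 lost their calls with water. Their log2 fold changes were then -0.12 (adjusted p = 0.14) and -0.12 (adjusted p = 0.0671). Summed over the 9 transmembrane cyclases, FPKM was 202 to 221 in DKO nicotine, 211 to 225 in DKO water, 225 to 238 in WT nicotine and 230.2 to 237 in WT water. The other 5 cyclases (Adcy3, Adcy4, Adcy5, Adcy6 and Adcy8) were not called between genotypes with either drink. Their log2 fold changes were -0.17 to 0.16 with water and -0.19 to 0.02 with nicotine. With water Adcy8 was at -0.17 (SE 0.07, adjusted p = 0.0553) and was called lower in 7 of its alternatives. Adcy6 with water was at -0.13 (SE 0.05, adjusted p = 0.0677), without overlap, and was called lower in 2.

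Phosphodiesterases were called in both directions. The 2 tested members of the cGMP-regulated PDE2 and PDE3 families rose in both comparisons, and 2 of 3 tested PDE4 genes fell in both. Pde2a was at 107, 105 and 106 FPKM in DKO nicotine and 106, 99.9, 105 and 107 in DKO water, against 90.7, 92.4, 94.1 and 100.3 in WT nicotine and 89.8, 96.6, 94.5 and 91.4 in WT water. Within each drink the DKO libraries lay above the WT libraries, although WT nicotine replicate 4 came above the lowest DKO water library. Its log2 fold change was 0.16 (SE 0.04, adjusted p = 0.00174) with water and 0.17 (SE 0.04, adjusted p = 0.003) with nicotine, and neither kept its call under every alternative. After rescaling it was 0.10 (adjusted p = 0.0478) with water and 0.09 (adjusted p = 0.111) with nicotine, and with the striatal covariate the value with water was 0.13 (adjusted p = 0.0502), in ranges of adjusted p of 0.000894 to 0.0502 and 0.00093 to 0.111. Pde3b was at 1.66, 1.97 and 1.88 FPKM in DKO nicotine and 1.71, 1.86, 1.8 and 1.9 in DKO water, against 1.34, 1.47, 1.34 and 1.37 in WT nicotine and 1.41, 1.42, 1.4 and 1.2 in WT water, with no overlap between genotypes. It rose with a log2 fold change of 0.26 (SE 0.06, adjusted p = 0.00266) with water and 0.25 (SE 0.06, adjusted p = 0.00571) with nicotine, and by limma voom 0.42 (adjusted p = 0.000389) and 0.41 (adjusted p = 0.00084), on 187 to 320 recovered reads per library.

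Of the cAMP-specific PDE4 genes, Pde4b was at 18.2, 18.5 and 18.6 FPKM in DKO nicotine and 18.8, 18.4, 18.7 and 18.4 in DKO water, against 20.9, 19.9, 19.9 and 21.7 in WT nicotine and 20.5, 19.2, 20.8 and 19.8 in WT water. The genotypes did not overlap, and it fell with a log2 fold change of -0.11 (SE 0.04, adjusted p = 0.0302) with water and -0.15 (SE 0.04, adjusted p = 0.00663) with nicotine. The call with water was lost without any 1 of WT water replicates 1 and 3 and DKO water replicates 2 and 4 (adjusted p of 0.00364 to 0.166 over all alternatives), and with the striatal covariate, at -0.12 (adjusted p = 0.102). After rescaling it was -0.17 (adjusted p = 0.00364). Pde4d was at 2.56, 2.98 and 2.73 FPKM in DKO nicotine and 2.81, 2.61, 2.62 and 2.82 in DKO water, against 3.42, 2.95, 3.45 and 3.43 in WT nicotine and 3.22, 3.01, 3.48 and 3.32 in WT water. Its groups overlapped with nicotine, through WT nicotine replicate 2, and not with water. It fell with a log2 fold change of -0.20 (SE 0.06, adjusted p = 0.0151) with water and -0.20 (SE 0.06, adjusted p = 0.022) with nicotine. The call with nicotine was lost without any 1 of WT nicotine replicates 1, 3 and 4 and DKO nicotine replicates 1 and 3 (adjusted p of 0.00302 to 0.0986 over all alternatives), and the call with water without WT water replicate 3, with the striatal covariate and without DKO water replicates 2 and 4 (0.00171 to 0.0808). Pde4a was called in neither, at log2 fold changes of -0.05 and -0.07.

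Of the high-affinity cAMP-specific PDE7 and PDE8 genes, Pde8b was at 13, 12.2 and 12.2 FPKM in DKO nicotine and 11.8, 11.7, 11.4 and 11.8 in DKO water, against 14.1, 14.3, 13.3 and 13.6 in WT nicotine and 13.8, 13.4, 13.2 and 14.3 in WT water. The genotypes did not overlap, and it fell with a log2 fold change of -0.21 (SE 0.04, adjusted p = 0.000379) with water and -0.14 (SE 0.04, adjusted p = 0.0195) with nicotine. The call with nicotine was lost without WT nicotine replicate 2 or DKO nicotine replicate 2 or 3 (adjusted p of 0.00105 to 0.0749 over all alternatives), and after rescaling the value was -0.21 (adjusted p = 0.00105). Pde8a was at 9.14, 9.16 and 11.1 FPKM in DKO nicotine and 6.73, 7.25, 7.22 and 6.65 in WT nicotine, without overlap, and rose with a log2 fold change of 0.43 (SE 0.10, adjusted p = 0.00356). With water Pde8a was at 8.15, 12.2, 8.27 and 9.24 FPKM in DKO and 7.58, 8.71, 7.45 and 8.39 in WT, where the groups overlapped and the log2 fold change was 0.20 (SE 0.10, adjusted p = 0.112). Whether the Pde8a difference depended on the drink was tested by the interaction, where its p did not pass. The interaction cannot tell nicotine fully apart from Y-linked expression. Pde7b fell in DKO nicotine, at 4.11, 3.84 and 4.55 FPKM against 4.75, 5.44, 5.62 and 5.96 in WT nicotine, by a log2 fold change of -0.32 (SE 0.09, adjusted p = 0.0117), and the call was lost without DKO nicotine replicate 2 (adjusted p = 0.0511, in a range of 0.00026 to 0.0511 over its alternatives). With water Pde7b was at 4.47, 5.55, 4.23 and 5.55 FPKM in DKO and 5.91, 5.19, 5.47 and 4.79 in WT, with overlap and a log2 fold change of -0.10 (SE 0.08, adjusted p = 0.393). With the striatal covariate that value was -0.32 (adjusted p = 0.00334), in a range of adjusted p of 0.00334 to 0.774. Pde7a was called in neither comparison, at log2 fold changes of 0.02 with water and 0.13 with nicotine.

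Pde1a, a calmodulin-stimulated enzyme, was at 47.3, 53.2 and 45.6 FPKM in DKO nicotine and 40.5, 40.3, 39.4 and 42.9 in WT nicotine, with every DKO library higher, and rose with a log2 fold change of 0.25 (SE 0.06, adjusted p = 0.00224). With water it was at 52.7, 47.5, 55.8 and 50.7 FPKM in DKO and 47.1, 47.3, 49.7 and 49 in WT, with overlap and a log2 fold change of 0.09 (SE 0.05, adjusted p = 0.158). It was called higher with water under the striatal covariate, at 0.18 (adjusted p = 0.046), and without DKO water replicates 2 and 4, at 0.16 (adjusted p = 0.0433), in a range of adjusted p of 0.0433 to 0.709. By mean, Pde1a was lowest in WT nicotine, at 40.8 FPKM, while DKO nicotine, at 48.7, was near WT water, at 48.3. WT nicotine also stood apart in Y-linked expression, whose part in the difference was not tested. Pde1c was called higher with water, at 0.85, 1.02, 0.749 and 1.15 FPKM in DKO and 0.63, 0.684, 0.727 and 0.581 in WT and a log2 fold change of 0.23 (SE 0.08, adjusted p = 0.041), and after rescaling it no longer reached the filter. Only DKO libraries brought Pde1c past the filter, so its call is no independent evidence of a rise in DKO. Replicates 2 and 4 were the highest of its DKO water libraries, as they were for Pde10a and Pde1b. With the striatal covariate its value was 0.05 (adjusted p = 0.734) and by limma voom 0.50 (adjusted p = 0.0125), and the call was also lost with a replicate block (adjusted p = 0.0587) and without WT water replicate 1, 2 or 4 (adjusted p of 0.0125 to 0.734 over all alternatives). With nicotine its log2 fold change was 0.23 (SE 0.09, adjusted p = 0.0581), called in 5 of its alternatives. Pde9a was at 7.38, 7.65, 6.23 and 7.24 FPKM in DKO water and 6.05, 4.9, 6.45 and 5.75 in WT water, overlapped, and was called higher with a log2 fold change of 0.26 (SE 0.09, adjusted p = 0.0275). That call was lost after rescaling and without any 1 of 5 libraries, WT water replicates 2 and 4 and DKO water replicates 1, 2 and 4 (adjusted p of 0.0129 to 0.381 over all alternatives). With the striatal covariate the Pde9a value was 0.15 (adjusted p = 0.381), and without DKO water replicates 2 and 4 together 0.20 (adjusted p = 0.204). With nicotine Pde9a was not called, at a log2 fold change of 0.22 (SE 0.10, adjusted p = 0.0841). Pde5a and Pde6d were called in neither, nor was Pde12. Pde4dip was called with water alone, and with nicotine its log2 fold change was -0.12 (SE 0.05, adjusted p = 0.0718). Pde4dip, the scaffold, was at 18, 17.4, 19.5 and 18.2 FPKM in DKO water and 20.6, 19.6, 20.8 and 20.8 in WT water and fell with a log2 fold change of -0.16 (SE 0.05, adjusted p = 0.0163), a call lost without DKO water replicate 2 (adjusted p = 0.0564), without replicates 2 and 4, at -0.12 (adjusted p = 0.153), and with the striatal covariate, at -0.12 (adjusted p = 0.2), in a range of 0.00407 to 0.2.

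**Figure D3:**
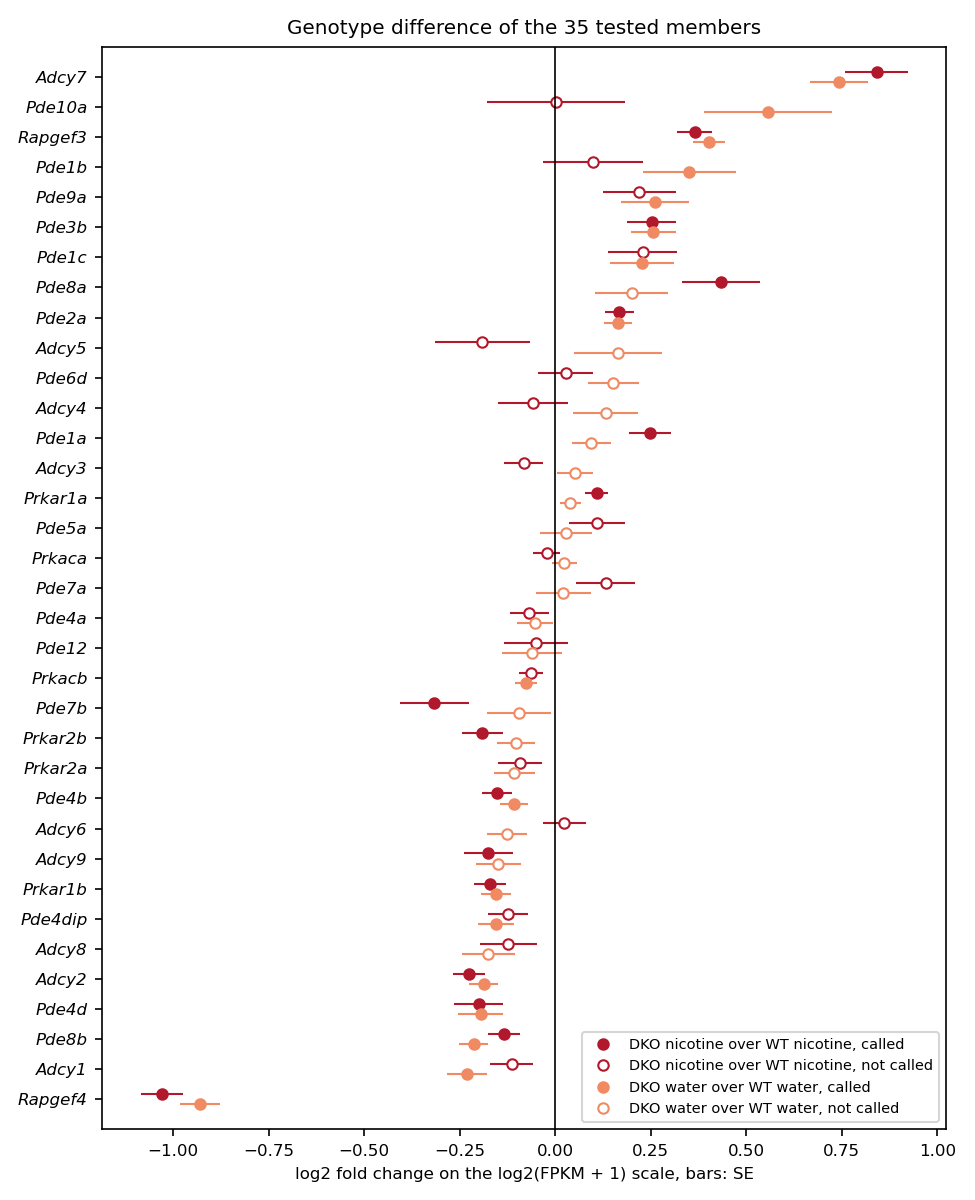
Log2 fold change (log2(FPKM + 1) scale) with its SE for the 35 tested members in DKO nicotine over WT nicotine (red) and DKO water over WT water (orange), filled where limma's adjusted p was under 0.05. Adcy7 and Rapgef3 lie on the higher side and Rapgef4, at -1.03 and -0.93, far to the lower side under both drinks.

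Pde10a and Pde1b, both abundant in the medium spiny neurons of the striatum, were called higher in DKO water. Pde10a was at 11.9, 17.6, 9.79 and 16.6 FPKM in DKO water and 8.76, 9.13, 9.87 and 8.06 in WT water, with a log2 fold change of 0.56 (SE 0.17, adjusted p = 0.0144). Pde1b was at 77, 85.4, 58.1 and 87.3 FPKM in DKO water and 61.7, 58.4, 66.4 and 52 in WT water, with a log2 fold change of 0.35 (SE 0.12, adjusted p = 0.0306). In both genes the groups overlapped, and DKO water replicates 2 and 4 were the highest of the 15 libraries. The summed FPKM of 12 striatal medium spiny neuron markers was 331, 234 and 327 in DKO nicotine, 366, 457, 276 and 446 in DKO water, 212, 245, 329 and 352 in WT nicotine and 273, 249, 282 and 205 in WT water. Its highest values were also in DKO water replicates 2 and 4, none of the 12 markers was at 0, and 6 of 12 were called higher in DKO water. Between DKO nicotine and WT nicotine limma called 0 of the 12, with 0 at an unadjusted p under 0.05 and 0 called by limma voom. With the log2 of that sum as a covariate, the log2 fold change of Pde10a was 0.03 (adjusted p = 0.846). That of Pde1b was -0.05 (adjusted p = 0.467). Without DKO water replicates 2 and 4 the value was 0.25 for Pde10a (adjusted p = 0.296) and 0.17 for Pde1b (adjusted p = 0.388). Leaving out replicate 2 alone gave adjusted p = 0.057 for Pde10a and 0.0961 for Pde1b, and replicate 4 alone 0.051 and 0.0976. The ranges over all alternatives were 0.00257 to 0.846 for Pde10a and 0.00211 to 0.467 for Pde1b. Without WT water replicate 2 or 4 or DKO water replicate 1 the Pde1b call was lost as well, at adjusted p = 0.059, 0.1 and 0.0623.

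Adcy5, the striatal cyclase, was also highest in those 2 libraries. It was at 36.1, 31.2 and 36.2 FPKM in DKO nicotine, 38.5, 47.8, 32.9 and 48.2 in DKO water, 33.7, 35.4, 43.5 and 46.5 in WT nicotine and 38, 37.1, 39.8 and 32.7 in WT water, and the groups overlapped. Its log2 fold change was 0.16 (SE 0.12, adjusted p = 0.284) with water and -0.19 (SE 0.12, adjusted p = 0.249) with nicotine. With the log2 of the striatal sum as a covariate, Adcy5 was called lower in DKO under both drinks. With water the value was -0.21 (adjusted p = 0.00509, in a range of 0.00509 to 0.799 over its alternatives). With nicotine it was -0.24 (adjusted p = 0.000302, in a range of 0.000302 to 0.534). The covariate and the removal of 2 libraries were chosen after seeing the data, and the covariate is itself higher in DKO water. For Rapgef4 the log2 fold change with the covariate was -0.83 with water and -1.02 with nicotine.

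**Figure D4:**
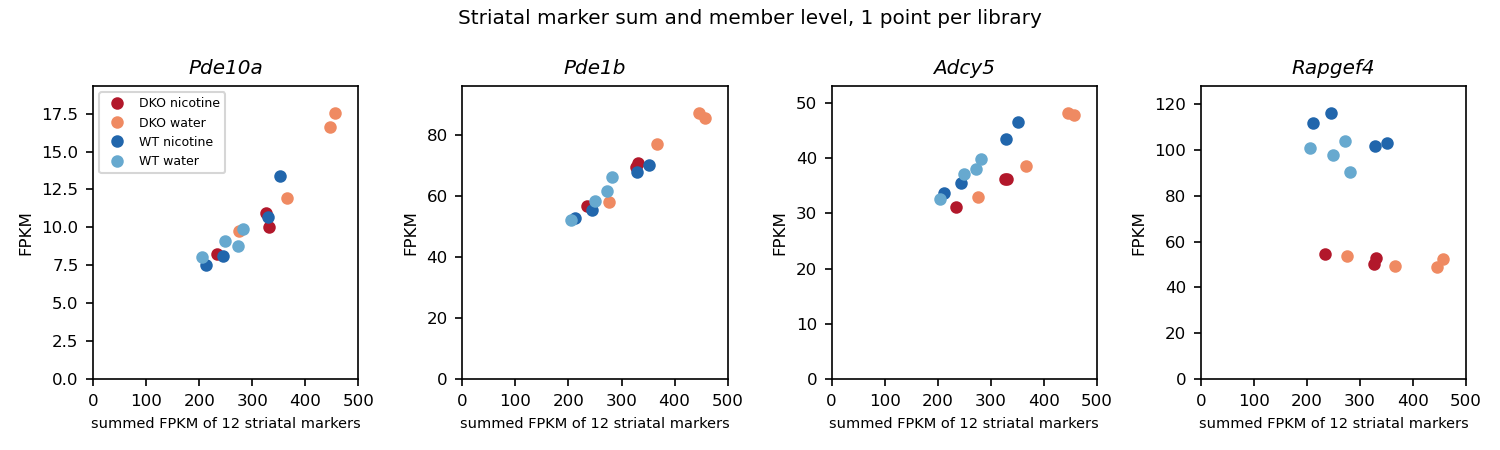
FPKM of Pde10a, Pde1b, Adcy5 and Rapgef4 against the summed FPKM of 12 striatal medium spiny neuron markers, 1 point per library, coloured by group. Pde10a and Pde1b follow the marker sum across all groups, and Adcy5 does so with DKO libraries below WT libraries of like sum. Rapgef4 is lower in every DKO library than in every WT library.

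In protein kinase A, the brain-enriched regulatory subunit Prkar1b fell in DKO under both drinks. Prkar1b was at 328, 338 and 304 FPKM in DKO nicotine and 333, 315, 330.2 and 308 in DKO water, against 350.5, 377, 355 and 371 in WT nicotine and 366, 359.8, 355 and 350.4 in WT water. The genotypes did not overlap, and it fell with a log2 fold change of -0.15 (SE 0.04, adjusted p = 0.0045) with water and -0.17 (SE 0.04, adjusted p = 0.00444) with nicotine. With water the call was lost with the striatal covariate (-0.12, adjusted p = 0.0869) and without DKO water replicates 2 and 4 (-0.11, adjusted p = 0.0938), in a range of 0.000604 to 0.0938. Its close relative Prkar1a was at 191, 184 and 194 FPKM in DKO nicotine and 172, 178, 174 and 179 in WT nicotine, without overlap, and rose with a log2 fold change of 0.11 (SE 0.03, adjusted p = 0.0102). After rescaling that value was 0.03 (adjusted p = 0.522, in a range of 0.00618 to 0.522), and without DKO nicotine replicate 3 the adjusted p was 0.0542. With water the log2 fold change of Prkar1a was 0.04 (SE 0.03, adjusted p = 0.291). The ratio of Prkar1b to Prkar1a FPKM within a library, which no scaling between libraries can move, was 1.57 to 1.83 in DKO nicotine, 1.63 to 1.81 in DKO water, 2.04 to 2.11 in WT nicotine and 1.93 to 2.05 in WT water. In that ratio all DKO libraries were below all WT libraries.

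The type II subunit Prkar2b was at 17.8, 18.2 and 18.3 FPKM in DKO nicotine and 20.6, 20.9, 20.6 and 21.2 in WT nicotine, without overlap, and fell with a log2 fold change of -0.19 (SE 0.05, adjusted p = 0.0105). With water it was at 18.9, 21.5, 18.7 and 18.7 FPKM in DKO and 22.5, 21.5, 20.9 and 19.1 in WT, with overlap and a log2 fold change of -0.10 (SE 0.05, adjusted p = 0.117). Prkar2a was called in neither comparison, at -0.11 and -0.09. The catalytic subunit Prkacb was at 118, 117, 119 and 119.8 FPKM in DKO water and 125, 121, 127 and 128 in WT water. It was called lower with a log2 fold change of -0.08 (SE 0.03, adjusted p = 0.0495), a call close to the threshold that 16 of 25 alternatives did not keep (adjusted p of 0.00205 to 0.157 over all alternatives). Leaving out any 1 library lost it, other than WT nicotine replicates 1 and 4 and WT water replicate 2, and after rescaling the value was -0.14 (adjusted p = 0.00205). With nicotine Prkacb was not called, at -0.06 (SE 0.03, adjusted p = 0.131), although the groups did not overlap. Prkaca was called in neither, at 0.02 with water and -0.02 with nicotine.

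The comparisons of nicotine with water ask what the drug did within each genotype. In DKO mice limma called 0 of the 35 members and 0.157% of all tested genes. At an unadjusted p under 0.05 there were 5 members, or 14.3% of the 35, where 13.9% of all tested genes were, and limma voom on the recovered reads called 0 members and 0.684% of all genes. The groups did not overlap in 7 members, against 10.9% of all tested genes. The 3 smallest p-values belonged to Pde10a, Adcy3 and Adcy6. Pde10a was at 10.1, 8.27 and 10.9 FPKM in DKO nicotine and 11.9, 17.6, 9.79 and 16.6 in DKO water, with a log2 fold change of -0.45 (SE 0.18, adjusted p = 0.282), and at -0.13 with the striatal covariate. Adcy3 was at 13.1, 13.3 and 12.3 FPKM in DKO nicotine and 14.3, 13.5, 14.4 and 14.3 in DKO water, without overlap, and its log2 fold change was -0.13 (SE 0.05, adjusted p = 0.295). Adcy6 was at 8.02, 8.16 and 7.46 FPKM in DKO nicotine and 6.53, 7.31, 7.33 and 7.38 in DKO water, without overlap, and its log2 fold change was 0.13 (SE 0.06, adjusted p = 0.33). Y-linked genes summed to 0.233 FPKM in DKO nicotine replicate 2 and to 24.3 or more in every DKO water library. The part of this in the comparison was not tested.

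In WT mice limma called 0 of the 35 members and 0.173% of all tested genes between nicotine and water. At an unadjusted p under 0.05 there were 3 members, or 8.57% of the 35, where 8.7% of all tested genes were, and limma voom called 0 members and 0.126% of all genes. The groups did not overlap in 2 members, Pde1a and Pde8a, against 5.8% of all tested genes. Pde1a was at 40.5, 40.3, 39.4 and 42.9 FPKM in WT nicotine and 47.1, 47.3, 49.7 and 49 in WT water, with every nicotine library lower, and its log2 fold change was -0.24 (SE 0.05, adjusted p = 0.0994). It was called when the fit held only the groups compared or left out DKO nicotine replicate 2, in a range of adjusted p of 0.021 to 0.271. Adcy8 was at 3.75, 4.23, 4.68 and 3.83 FPKM in WT nicotine and 4.39, 5.02, 5.37 and 4.69 in WT water, with a log2 fold change of -0.20 (SE 0.07, adjusted p = 0.432). Rapgef4 had a log2 fold change of 0.14 (SE 0.05, adjusted p = 0.473) on the values given above, and its groups overlapped. Y-linked expression differed between these groups for every library, so that its part in these values cannot be told apart from that of nicotine.

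Whether the difference between nicotine and water depended on genotype was tested by an interaction term. Y-linked genes were near 0 in all WT nicotine libraries but only in replicate 2 of DKO nicotine. The interaction therefore cannot tell nicotine fully apart from Y-linked expression. Limma called 0 members higher or lower, where 0.0157% of all tested genes were called. At an unadjusted p under 0.05 there was 1 member, or 2.86% of the 35, where 6.9% of all tested genes were, and limma voom called 0 members and 0.0157% of all genes. The smallest p-values were those of Pde10a, at a difference of log2 fold changes of -0.55 (SE 0.25, adjusted p = 0.7), Adcy5, at -0.35 (SE 0.17, adjusted p = 0.716), and Pde1a, at 0.15 (SE 0.08, adjusted p = 0.716). With the striatal covariate these were -0.10, -0.03 and 0.08, and without DKO water replicates 2 and 4 -0.25, -0.14 and 0.08. For Rapgef4 the difference was -0.10 (SE 0.08, adjusted p = 0.844), for Adcy7 0.10 (SE 0.11, adjusted p = 0.9) and for Pde8a 0.23 (SE 0.14, adjusted p = 0.777).

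The 9 members under the filter were Adcy10, Pde3a, Pde4c, Pde11a and the photoreceptor genes Pde6a, Pde6b, Pde6c, Pde6g and Pde6h. Pde11a ranged from 0.712 to 1.02 FPKM over the 15 libraries, Pde4c from 0.608 to 1.01 and Pde3a from 0.179 to 0.468. The highest value in any library was 0.101 FPKM for Pde6a, 0.159 for Pde6b, 0.187 for Pde6c, 0.304 for Pde6g and 0.493 for Pde6h, on at most 10 recovered reads each. Differences between groups were not tested in these genes.

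Genes around these members in the pathway were called in both directions between genotypes, where 38.0% of all tested genes were called with water and 35.7% with nicotine and the median log2 fold change of all tested genes was 0.05 and 0.06. Of 7 G protein alpha subunits, 3 rose and 1 fell with water (median log2 fold change -0.01), and 2 rose and 1 fell with nicotine (-0.03). The 7 include Gnal, which is also a striatal marker. The inhibitory Gnai1 was at 63.4 ± 1.03 FPKM in DKO water and 77.1 ± 1.1 FPKM in WT water, with a log2 fold change of -0.28 (adjusted p = 4.73e-07). Gnai2, the isoform of many non-neuronal cells, was at 104 ± 3.18 FPKM in DKO water and 79.5 ± 3.27 FPKM in WT water, with a log2 fold change of 0.39 (adjusted p = 1.59e-05). With nicotine the log2 fold changes were -0.22 (adjusted p = 2.07e-05) for Gnai1 and 0.30 (adjusted p = 0.000429) for Gnai2.

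Of 20 tested Gs- and Gi-coupled receptors of cortex, 4 rose and 7 fell with water (median -0.03), and 2 rose and 6 fell with nicotine (median 0.04). This list includes Drd1, Drd2 and Adora2a, which are also striatal markers. Adora2a was among those that rose with water, at 0.88 (adjusted p = 0.0181), with overlapping groups. Grm2, the Gi-coupled glutamate receptor, was at 12.9 ± 1.08 FPKM in DKO water and 24.2 ± 1.95 FPKM in WT water, with a log2 fold change of -0.86 (adjusted p = 3.34e-08), and at 13.3 ± 1.01 FPKM in DKO nicotine and 23.5 ± 1.19 FPKM in WT nicotine, with a log2 fold change of -0.78 (adjusted p = 3.28e-07). Crhr1, the Gs-coupled receptor of corticotropin-releasing hormone, was at 1.52 ± 0.163 FPKM in DKO water and 3.16 ± 0.198 FPKM in WT water, with a log2 fold change of -0.73 (adjusted p = 4.13e-07). Adcyap1r1, the receptor of the peptide PACAP, was at 39.6 ± 1.65 FPKM in DKO water and 28.6 ± 0.778 FPKM in WT water, with a log2 fold change of 0.46 (adjusted p = 9.09e-07). With nicotine the log2 fold changes were -0.65 (adjusted p = 4.06e-06) for Crhr1 and 0.50 (adjusted p = 8.7e-07) for Adcyap1r1. For Grm2, Crhr1 and Adcyap1r1 the groups did not overlap under either drink.

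Of 15 tested A-kinase anchoring proteins, which hold protein kinase A at its substrates, 6 were called with water, all of them lower (median -0.06), and 1 rose and 3 fell with nicotine (median 0.03). Wasf1, an actin regulator that binds the kinase, was at 71.6 ± 1.76 FPKM in DKO water and 89.6 ± 2.84 FPKM in WT water, with a log2 fold change of -0.32 (adjusted p = 2.38e-06) with water and -0.35 (adjusted p = 2.26e-06) with nicotine. Of 4 genes for kinase inhibitor peptides and the related kinase Prkx, 2 rose and 1 fell in each comparison (medians 0.15 with water and 0.17 with nicotine). Pkia, the main inhibitor peptide of brain, was at 60.4 ± 2.67 FPKM in DKO water and 51.3 ± 2.3 FPKM in WT water, with a log2 fold change of 0.23 (adjusted p = 0.00016) with water and 0.25 (adjusted p = 0.000176) with nicotine. Pkig, a second inhibitor peptide, fell, with log2 fold changes of -0.14 (adjusted p = 0.0432) with water and -0.38 (adjusted p = 8.64e-05) with nicotine.

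Downstream, 3 of 12 tested CREB family genes and coactivators rose and 2 fell with water (median 0.06), and 3 rose and 1 fell with nicotine (median 0.02). The coactivator Crtc1 was at 31.5 ± 2.04 FPKM in DKO water and 38.5 ± 0.759 FPKM in WT water, with a log2 fold change of -0.29 (adjusted p = 6.32e-05) with water and -0.37 (adjusted p = 1.23e-05) with nicotine. The transcription factor genes Creb3 and Crem were higher with water, with log2 fold changes of 0.22 (adjusted p = 0.00293) and 0.29 (adjusted p = 0.00305). Of 15 Rap GTPases and regulators, on which the Epac proteins act, 5 rose and 3 fell with water (median 0.06) and 5 rose and 4 fell with nicotine (median 0.0016). Sipa1l1, a Rap GTPase-activating protein of synapses, was at 53.7 ± 4.41 FPKM in DKO water and 66.7 ± 1.26 FPKM in WT water, with a log2 fold change of -0.31 (adjusted p = 0.000321) with water and -0.31 (adjusted p = 0.000729) with nicotine. Sipa1, a related protein, was higher, at 4.55 ± 0.369 FPKM in DKO water and 3.1 ± 0.371 FPKM in WT water and a log2 fold change of 0.44 (adjusted p = 0.000582), as was Rap1gap, another of these activators, at 0.19 (adjusted p = 0.00321). Of 10 tested genes of cGMP synthesis and its kinases, 1 rose and 3 fell with water (median -0.13) and 2 rose and 3 fell with nicotine (median -0.08). The guanylyl cyclase gene Gucy2g was at 1.41 ± 0.0742 FPKM in DKO water and 3.22 ± 0.0958 FPKM in WT water, with a log2 fold change of -0.81 (adjusted p = 2.29e-08), and Gucy1a3, a subunit of the nitric oxide receptor, at 19.8 ± 0.853 FPKM in DKO water and 26.1 ± 0.505 FPKM in WT water, with a log2 fold change of -0.38 (adjusted p = 1.41e-06). Of 5 tested phosphatase inhibitors and ARPP proteins 2 rose and 2 fell with water, among them Ppp1r1b, which is also a striatal marker, and 1 rose and 2 fell with nicotine (medians -0.11 with water and -0.09 with nicotine). Over the 92 tested genes of all pathway lists, limma and limma voom each called 0 between DKO nicotine and DKO water, between WT nicotine and WT water and for the interaction. At an unadjusted p under 0.05 limma gave 11, 6 and 7 of the 92 in those 3 comparisons, where 13.9%, 8.7% and 6.9% of all tested genes were.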

How the data were processed

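Each library had 1 table of FPKM per gene, deposited by the authors. Per the labels' protocols, total RNA was extracted with TRIzol and sequenced after a stranded mRNA library preparation. The submitters' processing notes name the build GRCm38.p6, and the aligner and counter are not given in the sources used. The deposited FPKM of 99.99% of tested genes were whole multiples of 1 read within 0.02 reads, so reads per gene were recovered, 16334914 to 19469257 per library. These counts were used for limma voom and for depth.

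Values were analysed as log2(FPKM + 1) for 12728 of 21878 genes with limma 3.58.1 in R 4.3.3, with an intensity trend, and 1 fit of the 4 group means over all 15 libraries without a replicate block, and p-values were adjusted by Benjamini-Hochberg within a comparison. Groups came from the labels. The functions were tested on simulated data. Tables and plots used Python 3.11.15, pandas 2.3.3 and matplotlib 3.10.9. The genes, pathway lists and marker lists were chosen with earlier results of these data known, so no count over a list is independent evidence.

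Up to 10 called members with the largest rise and up to 10 with the largest fall were given values in each comparison, or the 3 with the smallest p where fewer than 3 were called; members that averaged at least 1 FPKM were given levels, and up to 3 called genes were named of each pathway list. Adcy5, Adcy6, Adcy8 and Adora2a between genotypes, and the interaction values of Rapgef4, Adcy7 and Pde8a, were chosen for the text with their values in view. The alternatives tried were median-of-ratios rescaling, other filters, a pseudocount of 0.1, no intensity trend, only the groups compared, limma voom, a replicate block and leaving out each library. A covariate of the log2 striatal marker sum, and leaving out DKO water replicates 2 and 4 together, were chosen after seeing the data. A second targeted gene and 1 of the pathway lists are not reported here.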

Additional observations from a re-analysis of the deposited data

Results flagged for a closer look

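In 5 of 105 groups of 4 libraries, 1 library lay further from the other 3 than Dixon's 95% critical value allows, and chance flags about 1 in 20 such groups. Adcy3 was lowest in DKO water replicate 2 at 13.54 FPKM, where the other 3 libraries lay at 14.322 to 14.387. Adcy6 was lowest in DKO water replicate 1 at 6.5255 FPKM, where the others lay at 7.3105 to 7.3802. Prkar2b was highest in DKO water replicate 2 at 21.505 FPKM, where the others lay at 18.734 to 18.949. Pde4d was lowest in WT nicotine replicate 2 at 2.9509 FPKM, where the others lay at 3.4156 to 3.4505. Pde3b was lowest in WT water replicate 4 at 1.199 FPKM, where the others lay at 1.3957 to 1.4246. No explanation of these values was tested.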

How the results depend on the processing

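Of 33 calls of members between genotypes, 15 kept direction and call under every alternative run (up to 25 each) and 18 lost the call under at least 1. The 15 were those of Rapgef4, Rapgef3, Adcy7 and Pde3b under both drinks, Pde8b with water, and Adcy2, Pde1a, Pde8a, Pde4b, Prkar1b and Prkar2b with nicotine. One value, that of Pde1b with water, reversed, to -0.0504 with the striatal covariate (adjusted p = 0.467). Calls gained under an alternative are not among the 33. In DKO water against WT water, members higher numbered 5 after rescaling, 5 with a filter at 5 FPKM, 4 with the striatal covariate and 5 without DKO water replicates 2 and 4, against 8, and members lower numbered 14 after rescaling, 4 with the covariate and 4 without the 2 libraries, against 9. Genes called there numbered 3010 with the covariate, against 4836. In DKO nicotine against WT nicotine, 16 members were lower after rescaling. In WT nicotine against WT water, 1 member was lower when only the groups compared were fitted. In DKO nicotine against DKO water, genes called numbered 13 without the intensity trend, 0 with only the groups compared, 87 by voom, 7 with the covariate and 7 without the 2 libraries, against 20. For the interaction, 1 gene was called after rescaling, without a filter, without the trend, with the block, with the covariate and without the 2 libraries, against 2. Leaving out 1 library at a time gave 4 to 9 members higher and 6 to 10 lower with water, and 6 to 9 higher and 6 to 9 lower with nicotine. It gave 0 to 1 member lower in WT nicotine against WT water, 1 to 57 genes in DKO nicotine against DKO water and 1 to 6 for the interaction. The causes of these shifts were not tested. With a replicate block, 4620, 3980, 19, 15 and 1 genes were called in DKO against WT with water and with nicotine, in WT and DKO nicotine against water and in the interaction. The block gave 7 members higher and 10 lower with water, and 7 higher and 7 lower with nicotine. Deviations of 21 same-numbered pairs of libraries correlated at -0.21 to 0.16, over 0.1 in 2 of 21. With so few libraries per group, these values cannot decide whether the numbers pair the samples. Reads limit what can be said of low genes, and the 3 DKO nicotine libraries limit the comparisons that use them.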

Other observations

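Among the chromosome 2 neighbours of Rapgef4, of the 10 nearest tested genes in GRCm38.p6 order, 5 were called higher and 1 lower in DKO water against WT water, with log2 fold changes of -0.20 to 0.47, and 6 higher and 1 lower in DKO nicotine against WT nicotine, at -0.21 to 0.54. Of all tested genes, 25.5% were called higher and 12.4% lower with water, and 24.6% and 11.0% with nicotine. Ola1, which encodes an Obg-like ATPase, was the 1 neighbour called lower in both. Dlx1, a transcription factor of inhibitory neurons, was called higher in both, at 0.54 with nicotine (adjusted p = 0.000123) and 0.47 with water (adjusted p = 0.000207). Inhibitory neuron markers (6 genes) summed to 512 to 677 FPKM in DKO nicotine, 583 to 724 in DKO water, 498 to 533 in WT nicotine and 481 to 532 in WT water. Of these, 6 of 6 were called higher with water and 3 of 6 with nicotine, none was at 0, and their part in the Dlx1 difference was not tested.

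Summed FPKM of the phosphodiesterases was 333 to 351 in DKO nicotine, 337 to 373 in DKO water, 304 to 344 in WT nicotine and 311 to 333 in WT water. Pde6d, the chaperone, is counted in this sum. With water the DKO libraries lay above the WT libraries by a small margin, 337 in DKO replicate 3 against 333 in WT replicate 3. These sums were not rescaled between libraries. They include Pde1b and Pde10a, which were highest in DKO water replicates 2 and 4, as was the striatal marker sum. With nicotine the groups overlapped. The cAMP-specific Pde4, Pde7 and Pde8 genes summed to 75.1 to 76.9 in DKO nicotine, 72.8 to 78.2 in DKO water, 76.8 to 80.8 in WT nicotine and 76.3 to 80.2 in WT water, and the genotypes overlapped under both drinks. These sums are descriptions with no test.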
